A study of Mus musculus with 55 samples.

Results

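Cerebella of mouse pups carrying a human PON1 transgene of the R192 form were compared with those of wild-type pups, both given vehicle only. The comparison took the arrays titled as R192 with vehicle (4 arrays) and as WT with vehicle (6 arrays), which makes 10 of the 55 arrays of the series, and ran across 14950 genes. R192 pups had the genotype tgHuPON1R192 and WT pups the genotype Pon1+/+, both of strain C57Bl/6. All 10 received the solvent DMSO under the skin daily from postnatal day 4 to day 21, and the cerebellum was taken at day 22. The other arrays were from pups given chlorpyrifos oxon (CPO) at 0.35 or 0.5 mg/kg/day and from 2 further genotypes, Q192 and PON1 knockout (KO). RNA levels were read with a 1-colour Affymetrix gene array (Mouse Gene 1.0 ST), and each value below is a level on the log2 scale as deposited. The sources used here give neither the promoter of the transgene, nor its number of founders, nor the state of the mouse Pon1 gene in the R192 line. As background, human PON1 transgenic lines of this kind are known to have been bred onto mice that lack the mouse gene, so the R192 and WT groups may differ in the mouse gene as well as in the transgene. No label says whether the arrays of a group came from different pups, so the p-values speak of the spread between arrays, which may be technical.

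Paraoxonase 1 is an esterase and lactonase that the liver secretes into blood, where it travels on high-density lipoprotein. It hydrolyses the oxons of several organophosphate insecticides, among them chlorpyrifos oxon, before they reach the acetylcholinesterase of the brain. Humans carry arginine (R) or glutamine (Q) at the residue the line is named for, and the arginine form hydrolyses chlorpyrifos oxon more efficiently. The cerebellum is dominated by small granule neurons, with Purkinje cells as its output neurons.

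Markers of cerebellar neurons were read in every array, along with those of adjoining tissue. Gabra6, the granule neuron GABA-A receptor subunit, lay between 12.53 and 12.79 in R192 arrays and between 10.68 and 12.94 in WT arrays. Pcp2, a Purkinje cell gene, lay between 9.65 and 10.14 in R192 and between 8.56 and 10.52 in WT. Ttr, a choroid plexus gene, lay between 12.70 and 13.32 in R192 and between 12.94 and 13.35 in WT, and Hoxb5, a brainstem gene, between 7.27 and 7.43 in R192 and between 6.99 and 7.85 in WT. WT replicates 1 and 4 stood apart. The mean of 22 granule neuron markers was 10.76 in WT replicate 1 and 8.91 in WT replicate 4, against 9.70 to 10.07 in the R192 arrays. The mean of 31 brainstem and midbrain markers ran the opposite way, at 7.58 in WT replicate 1 and 8.64 in WT replicate 4. All 10 arrays had low Xist (5.51 to 5.88) and high Eif2s3y (9.73 to 10.72). Both array dates were split evenly, with 2 and 2 arrays in R192 and 3 and 3 in WT. R192 replicates 3 and 4 share a number in their descriptions, as do WT replicates 4, 5 and 6, and the labels do not say what it stands for.

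Pon1 differed most. Its level was 10.02, 10.19, 10.11 and 10.27 in the R192 arrays, against 4.88 to 5.55 in the 6 WT arrays (median 5.17). Every R192 array was thus far above every WT array, and the difference was +4.93 (SE 0.13, limma adjusted p = 6.83e-34). The WT level lies under 6.44, the level below which genes were not tested by their mean over all arrays, so array background bounds how large the difference can appear. The sources used here do not say whether the probes read the human transgene or the mouse gene, or whether they lie outside the part disrupted in the knockout. Vehicle arrays labelled Q192 had 10.06 ± 0.11 (SD, n = 4) and those labelled KO 10.16 ± 0.20 (n = 4), so the Pon1 signal sets WT apart from the 3 other genotypes and does not check the R192 label against Q192 or KO. Pon1 also ran from 9.78 to 10.39 in arrays labelled KO at CPO 0.35 and from 9.92 to 10.13 at CPO 0.5. Whether the probes read an intact part of the gene in the knockout was not tested. Mrpl20, Snord53 and Hspa4l differed between R192 and KO in vehicle, while Gdpd3, Pglyrp1 and Ica1 had similar means (given below). The label itself was not tested, so the group is called arrays labelled KO. The other family members, Pon2 and Pon3, lie beside Pon1 on chromosome 6 and are known as lactonases. Pon2 was at 9.61, 9.46, 9.32 and 9.56 in R192, against 9.70 to 10.23 in WT (median 9.82). It fell by 0.36 (SE 0.09, adjusted p = 0.0193), with no overlap between the groups. Pon2 did not pass without R192 replicate 2 (adjusted p = 0.141). Pon3 averaged 7.13 ± 0.20 in R192 (SD, n = 4) and 7.26 ± 0.24 in WT (n = 6), a difference of -0.13 (SE 0.15, adjusted p = 0.633).

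In all, 796 of 14950 genes passed an adjusted p of 0.05 between R192 and WT in vehicle (5.32%). Of these, 98 were higher in R192 (0.655% of genes) and 698 lower (4.67%). Most differences were small, with a median of +0.33 among the rises and -0.36 among the falls. Only 109 of the 796 exceeded 0.5 and 5 exceeded 1 on the log2 scale. Among the 796, the ranges of the 4 R192 and 6 WT arrays did not overlap in 582 genes, 41 higher and 541 lower. Over all genes tested the ranges did not overlap in 9.24%, 1.41% higher and 7.83% lower. The median difference of all genes was -0.01. With each array centred on its own median, 460 genes passed, 174 higher and 286 lower, so the split between rises and falls depends on the scaling. The medians of the tested genes lay between 8.37 and 8.42 in R192 arrays and between 8.43 and 8.47 in WT arrays. Over all arrays, the median level was 9.66 among rises and 9.10 among falls, against 8.42 among all genes tested. With only the 9966 genes above the median of mean level, 1110 passed, 149 higher and 961 lower. The shares of all genes set beside the gene lists below are thus not shares among genes of like level.

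Few of the 796 genes also passed in pups given CPO. R192 and WT were also compared within CPO 0.35 (5 against 6 arrays) and CPO 0.5 (5 against 3), which share no array with the vehicle groups. At CPO 0.35, 30 genes passed (0.201%), 19 higher (0.127%) and 11 lower (0.0736%). Of these, 18 also passed in vehicle, which is 60% of the 30 and 2.26% of the 796. At CPO 0.5, 15 genes passed (0.100%), 11 higher (0.0736%) and 4 lower (0.0268%). Of these, 11 also passed in vehicle, which is 73.3% of the 15 and 1.38% of the 796. The count at CPO 0.35 was 16 without R192 replicate 1, 18 without WT replicate 1, 19 without WT replicate 2, 114 without WT replicate 4 and 145 without WT replicate 5 at that dose. Together 19 genes passed in vehicle and at a dose, and all 19 had the same sign in all 3 comparisons.

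The 10 genes that passed in all 3 comparisons were Pon1, Gdpd3, Mrpl20, Snord53, Pglyrp1, Rabl2, Hspa4l, Zfp109, Ica1 and Hdhd2. The promoters of the 4 with the largest vehicle differences for which RefSeq holds 1 entry are shown, because each gene differed in every treatment. They run from 250 bases before the start to the base before it, from RefSeq on build GRCm38.p6. Pon1 and Pglyrp1 were higher in R192, while Gdpd3 and Mrpl20 were lower. For Pon1 the window is that of the mouse gene, and whether it drives the signal measured in R192 was not tested. Pon1 is at chr6:5193947-5194196 on the minus strand, Gdpd3 at chr7:126766164-126766413 on the plus strand, Mrpl20 at chr4:155802628-155802877 on the plus strand and Pglyrp1 at chr7:18884440-18884689 on the plus strand. Capitals mark matches on either strand to CCAAT or GGGCGG, the letters of the classical CCAAT box and GC box, and TATAAA was searched too.
Pon1: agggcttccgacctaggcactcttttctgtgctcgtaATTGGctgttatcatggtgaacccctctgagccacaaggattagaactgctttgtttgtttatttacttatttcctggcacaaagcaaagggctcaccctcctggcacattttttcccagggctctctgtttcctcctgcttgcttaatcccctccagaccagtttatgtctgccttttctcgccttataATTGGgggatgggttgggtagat
Gdpd3: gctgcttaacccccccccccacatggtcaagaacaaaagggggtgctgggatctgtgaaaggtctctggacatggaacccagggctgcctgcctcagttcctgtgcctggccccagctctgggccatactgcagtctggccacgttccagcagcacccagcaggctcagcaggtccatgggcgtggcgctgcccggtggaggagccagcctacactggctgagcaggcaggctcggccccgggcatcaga
Mrpl20: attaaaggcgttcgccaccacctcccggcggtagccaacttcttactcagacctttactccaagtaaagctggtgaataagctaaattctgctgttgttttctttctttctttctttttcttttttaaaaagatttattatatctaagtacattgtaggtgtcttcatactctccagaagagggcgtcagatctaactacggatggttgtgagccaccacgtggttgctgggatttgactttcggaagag
Pglyrp1: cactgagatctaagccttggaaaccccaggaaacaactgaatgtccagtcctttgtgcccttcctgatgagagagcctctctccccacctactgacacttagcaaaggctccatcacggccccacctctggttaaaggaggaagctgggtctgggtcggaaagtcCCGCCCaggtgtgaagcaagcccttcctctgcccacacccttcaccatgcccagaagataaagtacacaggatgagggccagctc
CCAAT was found in 33.8% of 32851 such promoters, GGGCGG in 32.7% and TATAAA in 12.4%. Pon1 held 2 matches to CCAAT and Pglyrp1 held 1 match to GGGCGG. The Gdpd3 and Mrpl20 windows held none of the 3 sets of letters. None of the 4 held TATAAA. Their G and C content was 47.6% in Pon1, 65.2% in Gdpd3, 41.6% in Mrpl20 and 55.6% in Pglyrp1.

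Gdpd3, which encodes a lysophospholipase D of lipid signalling, had the largest fall. Its level was 6.38, 6.12, 6.25 and 6.34 in R192, against 8.35 to 8.91 in WT (median 8.52), a difference of -2.28 (SE 0.13, adjusted p = 4.92e-18). The R192 arrays all lay below 6.44, so here too background limits the size. The difference was -2.24 at CPO 0.35 and -2.25 at CPO 0.5. Mrpl20, a protein of the large subunit of the mitochondrial ribosome, was at 8.47, 8.17, 8.28 and 8.25 in R192, against 9.20 to 9.64 in WT (median 9.33). It fell by 1.11 (SE 0.17, adjusted p = 4.35e-05), and the difference was -1.29 at CPO 0.35 and -1.61 at CPO 0.5. Ica1, which encodes a protein of secretory vesicle trafficking, was at 9.41, 9.37, 9.25 and 9.44 in R192, against 9.64 to 9.94 in WT (median 9.70). It fell by 0.39 (SE 0.06, adjusted p = 0.000309), against -0.50 and -0.60 at the low and high dose of CPO. These were the 3 falls that passed in every treatment, and in none did the vehicle groups overlap.

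The other 6 repeated genes besides Pon1 were higher in R192. Snord53, a small nucleolar RNA of the class that guides ribosomal RNA methylation, was at 7.61, 7.32, 7.37 and 7.64 in R192, against 6.30 to 6.69 in WT (median 6.40). Its difference was +1.04 (SE 0.16, adjusted p = 0.000127), with +0.92 at CPO 0.35 and +1.1 at CPO 0.5. The WT median of Snord53 lay under 6.44, so background may limit the size of this difference too. Pglyrp1, a secreted peptidoglycan recognition protein of innate immunity, was at 8.66, 8.55, 8.58 and 8.18 in R192, against 7.53 to 7.81 in WT (median 7.62). It rose by 0.87 (SE 0.12, adjusted p = 1.38e-05), with +0.88 and +0.76 at the low and high dose of CPO. Both genes were above the whole WT range in each R192 array. Rabl2, a small GTPase of cilia and flagella, had 8.33, 8.31, 8.28 and 8.28 in R192, against 7.28 to 7.68 in WT (median 7.58), and rose by 0.77 (SE 0.11, adjusted p = 3.95e-05). Hspa4l, a cytosolic chaperone of the large heat shock protein family, had 10.90, 11.12, 11.10 and 11.14 in R192, against 10.34 to 10.54 in WT (median 10.46), and rose by 0.60 (SE 0.09, adjusted p = 2.96e-05). The 4 R192 arrays of Rabl2 lay within a narrower range than its WT arrays. Zfp109, a zinc finger gene of chromosome 7, had 7.98, 8.17, 8.23 and 8.17 in R192, against 7.57 to 7.77 in WT (median 7.62), and rose by 0.49 (SE 0.09, adjusted p = 0.000716). Hdhd2, a hydrolase-like gene of chromosome 18, had 9.82, 9.94, 9.98 and 10.08 in R192, against 9.55 to 9.93 in WT (median 9.64). It rose by 0.28 (SE 0.07, adjusted p = 0.0185) and was the only one of the 10 whose groups overlapped. Hdhd2 did not pass without R192 replicate 2 (adjusted p = 0.138), R192 replicate 4 (0.0648) or WT replicate 1 (0.0614), while the other 9 passed whichever single vehicle array was left out.

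**Figure D1:**
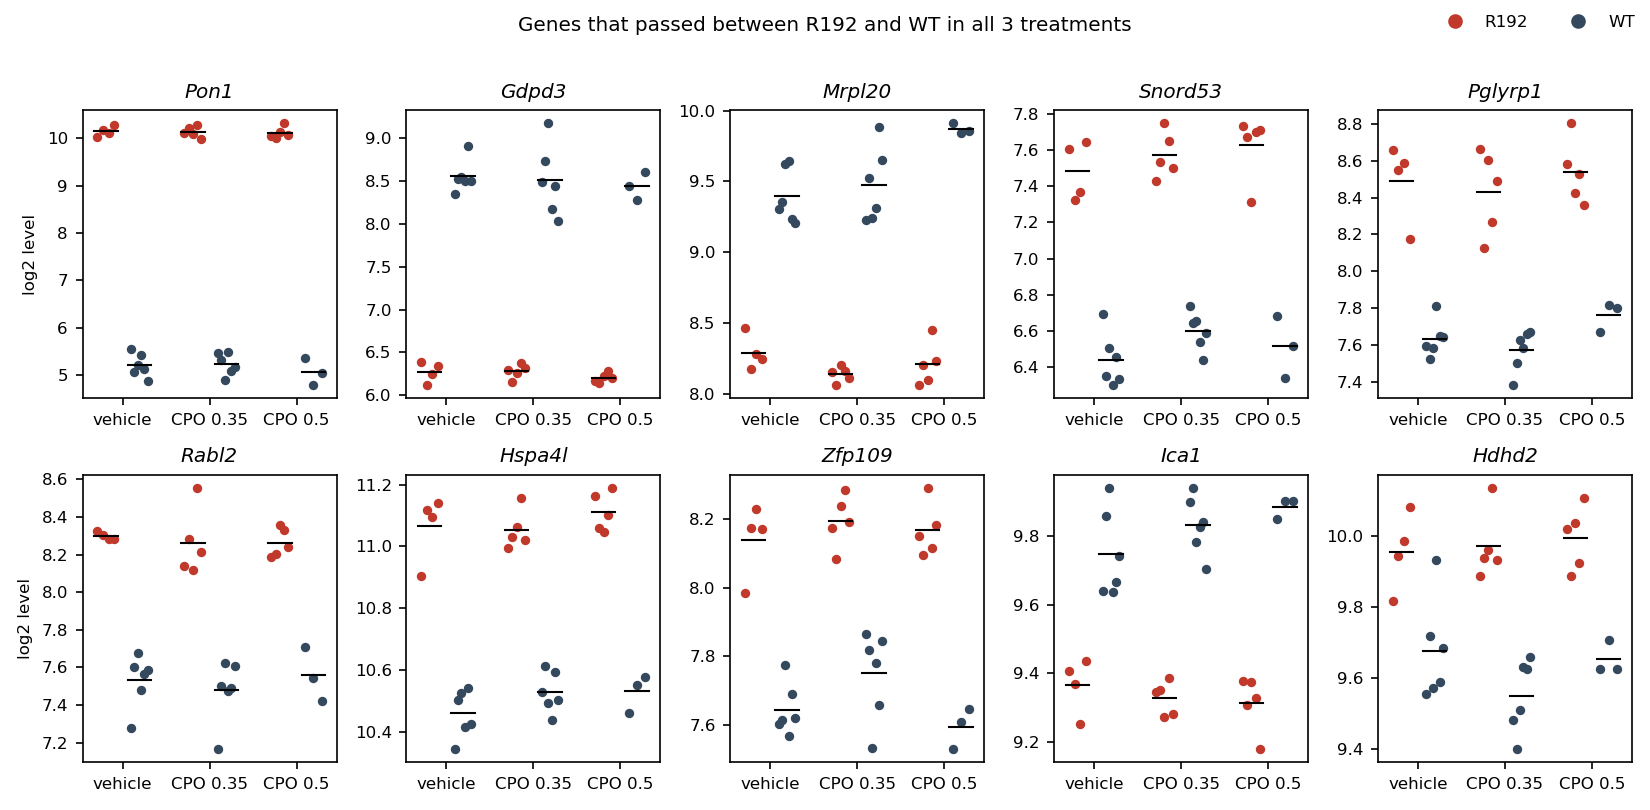
Log2 level of each array (points) and group mean (bar) for the 10 genes that passed between R192 (red, left of each pair) and WT (dark, right) in vehicle, CPO 0.35 and CPO 0.5, in groups of 4, 6, 5, 6, 5 and 3 arrays. Pon1 sat between 10.02 and 10.27 in R192 vehicle, above 5.55 in every WT vehicle array, and Hdhd2 alone overlapped in vehicle.

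Of the 8 genes that passed in vehicle and at CPO 0.35 but not at CPO 0.5, 5 were higher in R192 in vehicle. The rises were Glcci1, a glucocorticoid-induced gene (+0.58, SE 0.09), Ccdc91, of Golgi transport (+0.44, SE 0.08), Snrpd2, a core spliceosome protein (+0.38, SE 0.08), Ech1, of fatty acid oxidation (+0.32, SE 0.09), and Ccdc61 (+0.29, SE 0.08). The 3 lower genes were Mid1, Gm7276 (-0.37, SE 0.12) and Tgfb1i1, a focal adhesion protein (-0.35, SE 0.09). Mid1, which encodes a ubiquitin ligase and lies partly in the pseudoautosomal region of the mouse X, was at 8.46, 8.16, 8.22 and 8.23 in R192, against 8.70 to 9.75 in WT (median 8.99). It fell by 0.77 (SE 0.20, adjusted p = 0.0239), against -2.06 at CPO 0.35 (SE 0.19, adjusted p = 1.16e-10), where it averaged 8.07 ± 0.23 in R192 (SD, n = 5) and 10.15 ± 0.59 in WT (n = 6). The test of the difference between these differences gave an adjusted p of 0.317. Only Pon2 passed in vehicle and at CPO 0.5 alone.

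The 19 genes were spread over 8 named chromosomes, with 7 on chromosome 7, 5 on chromosome 6 and 1 each on 3, 4, 15, 17, 18 and X, and Gm7276 had none in the gene table. Over all 796 genes, the share that passed was 6.71% of 1193 genes on chromosome 7 and 5.82% of 739 on chromosome 6, near the 5.32% of all genes. Rises alone were 1.34% on chromosome 7 and 1.35% on chromosome 6, against 0.655% of all genes. They were also 1.26% on chromosome 17, 1.06% on chromosome 18 and 1.06% on X. Among the tested genes within 30 on each side of Pon1, 11 before it and 30 after it, 4 passed. They were Pon2, Ica1, Glcci1 and Ndufa4, which makes 9.76% of the 41, and the median difference of the 41 was +0.09. Glcci1 was at 11.97, 11.88, 11.82 and 11.78 in R192, against 11.12 to 11.59 in WT (median 11.24, adjusted p = 0.00015). Ndufa4, a subunit of cytochrome c oxidase, differed by +0.18 (SE 0.06, adjusted p = 0.0488) and did not pass in 20 of 31 alternative settings. Both lay above the WT range in all 4 R192 arrays. Only 11 tested genes precede Pon1 on the chromosome in the gene table, and its immediate neighbours Ppp1r9a (-0.06, adjusted p = 0.546) and Pon3 did not pass.

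The remaining 777 genes passed in vehicle alone. The 98 vehicle rises had a median difference of +0.19 at CPO 0.35, where 94 of them were higher in R192, and of +0.00 at CPO 0.5, where 49 were. The 698 vehicle falls had a median of -0.05 at CPO 0.35, where 511 of them were lower in R192, and of +0.02 at CPO 0.5, where 288 were. Of all genes tested, 50.4% were lower in R192 at CPO 0.35 and 52.2% at CPO 0.5. The difference between the vehicle difference and the CPO difference was tested for every gene. With limma, 0 genes passed for CPO 0.35, with 2100 at an unadjusted p under 0.05, and 3 passed for CPO 0.5 (0.0201%), all with a higher difference at CPO 0.5 (0.0201%), with 2136 at an unadjusted p under 0.05. Those 3 were Myo10, an unconventional myosin of filopodia, Ift122, of ciliary transport, and Lman2l, a cargo receptor of the early secretory pathway. Myo10 averaged 8.66 ± 0.09 in R192 and 9.09 ± 0.10 in WT in vehicle (SD), and 8.89 ± 0.05 in R192 and 8.74 ± 0.16 in WT at CPO 0.5. Its difference moved by +0.58 (SE 0.12, adjusted p = 0.0458), that of Ift122 by +0.52 (SE 0.10) and that of Lman2l by +0.79 (SE 0.16), both with the same adjusted p. Lman2l itself did not pass in vehicle (-0.29, adjusted p = 0.079). Apart from Myo10 and Ift122, no gene that passed in vehicle alone was thus shown to differ between vehicle and CPO. No gene passed this test for CPO 0.5 without R192 vehicle replicate 1, 2 or 4, or without WT vehicle replicate 1, 2, 3 or 6, and 1 passed without WT vehicle replicate 4. It was also 0 without any of the 5 R192 arrays at CPO 0.5 and without WT replicate 2 at that dose, and 1 without WT replicate 3 there.

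**Figure D2:**
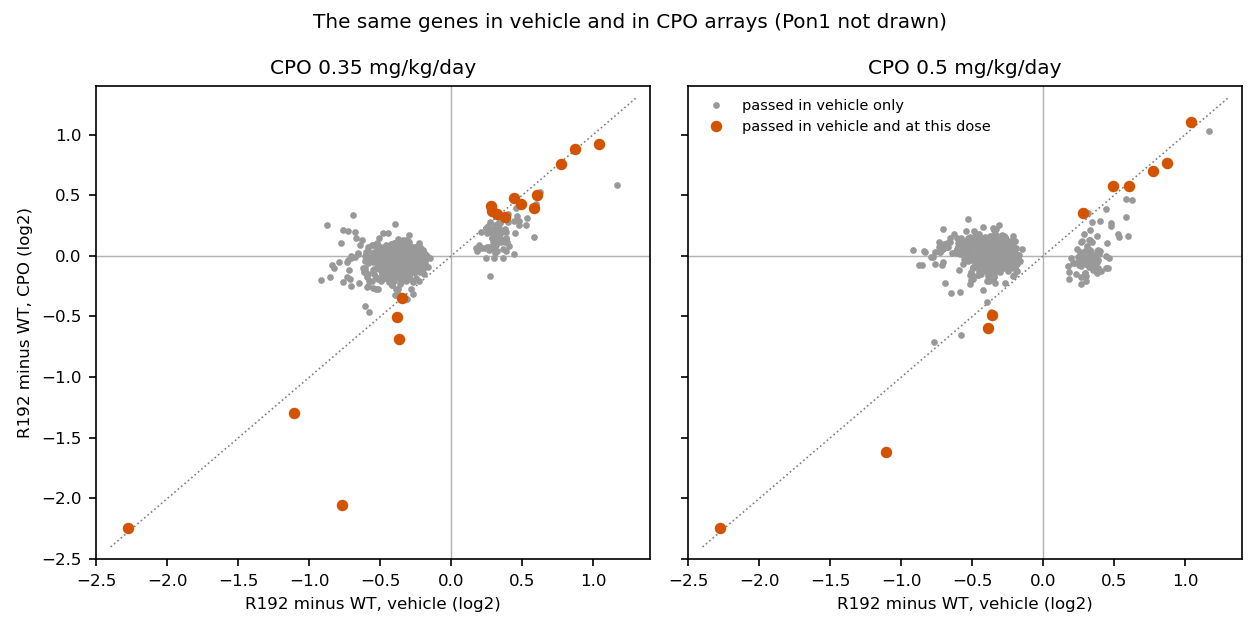
Difference between R192 and WT at CPO 0.35 (left) and CPO 0.5 (right) against the difference in vehicle, on the log2 scale, for the genes that passed in vehicle except Pon1. Orange points also passed at the dose and lie near or beyond the dotted line of equal difference, while the grey falls centre on -0.05 at CPO 0.35 and +0.02 at CPO 0.5.

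The count of 796 rested on single arrays. It was 312 without R192 replicate 1, 28 without R192 replicate 2, 1026 without R192 replicate 3 and 174 without R192 replicate 4. It was 95 without WT replicate 1, 334 without WT replicate 2, 1183 without WT replicate 3, 1209 without WT replicate 4, 373 without WT replicate 5 and 488 without WT replicate 6. Without both WT replicates that stood apart, 1 and 4, 179 genes passed, 56 higher and 123 lower. Within the first array date alone 4 genes passed (2 against 3 arrays) and within the second 6. With the ribosomal protein mean of each array as a covariate, 17 genes passed, and 9 of the 10 repeated genes were among them. With the first principal axis of all arrays as a covariate, 26 passed, again with 9 of the 10. That axis holds 27.5% of the variance and ran from 1.97 to 17.1 in R192 arrays and from -16.1 to -0.88 in WT arrays, without overlap.

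**Figure D3:**
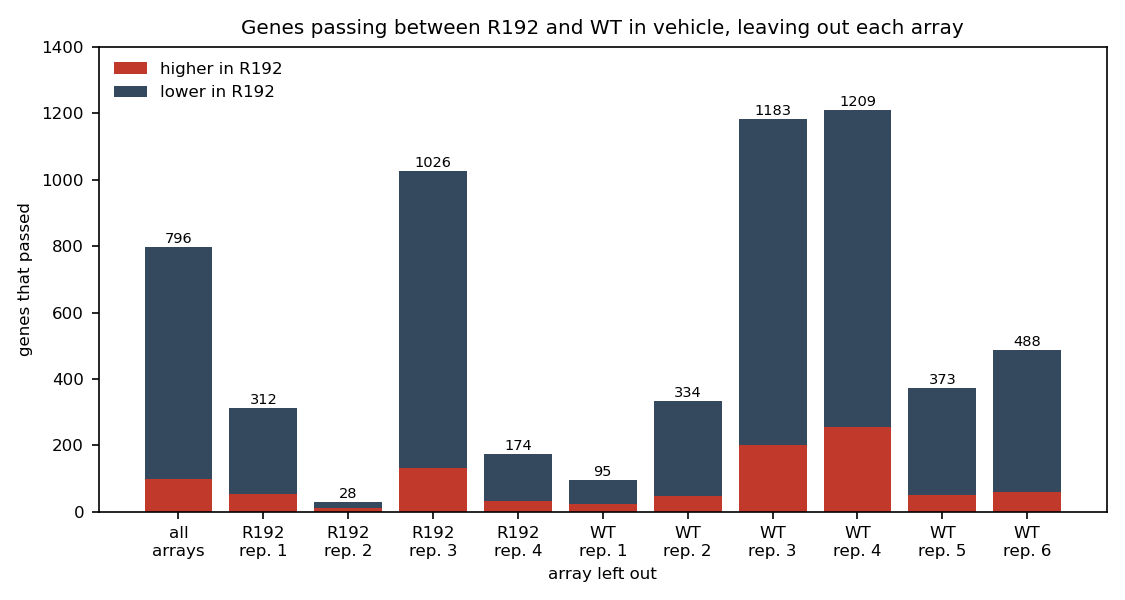
Number of genes that passed between R192 and WT in vehicle with all arrays (first bar) and without each array, split into those higher in R192 (red) and lower (dark). The total was 796 with all arrays, 28 without R192 replicate 2 and 1209 without WT replicate 4.

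Ribosomal protein genes made up 24 of the 98 rises. Of 59 cytosolic ribosomal protein genes tested, 24 rose and 0 fell, against 0.655% of all genes higher, and their median difference was +0.25 against -0.01 for all genes. The direction was shared by 58 of 59 in vehicle and by 58 of 59 at CPO 0.35, where their median was +0.18. With limma 0 of them passed there, and 36 had an unadjusted p under 0.05. At CPO 0.5, 21 of 59 were higher, the median was -0.02 and 0 passed, with 2 at an unadjusted p under 0.05. Rps15a led the list, at 10.001, 10.17, 10.09 and 10.10 in R192, against 9.39 to 9.82 in WT (median 9.56), a rise of 0.53 (SE 0.08, adjusted p = 3.95e-05). Its groups did not overlap, and it passed without any single vehicle array. Rpl36a (+0.46, SE 0.10), Rps20 (+0.38, SE 0.09) and Rpl23a (+0.33, SE 0.07) passed with overlapping groups. Many ribosomal protein genes have processed copies in the genome whose transcripts the probes may share, which makes their levels uncertain. For Rpl23a, the 12 other probe sets differed by +0.31 to +0.38. The mean level of the list was 10.84, 10.85, 10.74 and 10.84 in R192, against 10.40 to 10.81 in WT (median 10.52). WT replicate 4, at 10.81, lay inside the R192 range and the other 5 WT arrays below it. The count of 24 became 9, 1 and 7 without R192 replicate 1, 2 and 4. It became 4, 16, 38, 12 and 14 without WT replicate 1, 2, 4, 5 and 6. The median of the list lay between +0.20 and +0.30 in all 10 fits that left out 1 vehicle array. The count was 16 without both WT replicates 1 and 4 and 33 with each array centred on its median.

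Respiratory chain and ATP synthase genes make up the electron transport machinery of mitochondria. Of 90 tested, 6 rose and 0 fell, which is 6.67% against 0.655% of all genes higher and 5.32% in either direction, with a median of +0.13, and 71 of the 90 were higher in R192. Cox7a2l, a factor of supercomplex assembly, rose by 0.38 (SE 0.10, adjusted p = 0.0277), Atp5e by 0.33 (SE 0.09), Uqcrh by 0.29 (SE 0.08) and Cox7a2 by 0.25 (SE 0.07). A different probe set of Cox7a2l differed by +0.19. In WT replicate 4 the mean of this list was 10.56, above all 4 R192 arrays (10.43 to 10.49), and the other 5 WT arrays were lower. The count of 6 became 0 without R192 replicate 1 or 2 or WT replicate 1, 5 or 6, and 1 without R192 replicate 4 or WT replicate 2. It became 16 without WT replicate 3, 27 without WT replicate 4 and 4 without WT replicates 1 and 4. The median lay between +0.10 and +0.16 with any 1 vehicle array left out. At CPO 0.35, 62 of the 90 were higher, the median was +0.04 and 0 passed with limma, with 6 at an unadjusted p under 0.05. At CPO 0.5, 21 of the 90 were higher, the median was -0.06 and 0 passed, with 4 at an unadjusted p under 0.05. Of 77 mitochondrial ribosomal protein genes, Mrpl48 rose in vehicle and Mrpl20 and Mrpl38 fell, with a median of +0.08. That is 3.90% of the 77, against 5.32% of all genes in either direction. Of 46 small nucleolar RNAs tested, 45 were higher in R192 in vehicle, with a median of +0.19, but Snord53 alone passed. At CPO 0.35 the same list had a median of -0.06. Of 313 zinc finger genes named Zfp, 8 rose and 2 fell, against 0.655% of all genes higher and 4.67% lower. The rises were Zfp974 (+0.54), Zfp109 (+0.49), Zfp420 (+0.39), Zfp638 (+0.37), Zfp111 (+0.34), Zfp772 (+0.34), Zfp93 (+0.32) and Zfp655 (+0.18), and the falls Zfp36l1 (-0.42) and Zfp536 (-0.26). The 8 rises became 1 without R192 replicate 2, 4 without R192 replicate 4 or WT replicate 1 or 2, and 5 without WT replicate 5 or 6.

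The leading falls were of mixed function. The largest after Gdpd3 and Mrpl20 was Sez6l2, a neuronal surface protein, at 9.50, 9.15, 9.62 and 9.12 in R192, against 10.02 to 10.66 in WT (median 10.18). It fell by 0.92 (SE 0.23, adjusted p = 0.0205), against -0.20 at CPO 0.35 and +0.05 at CPO 0.5, where it did not pass. Gaa, the lysosomal acid glucosidase, fell by 0.87 (SE 0.26, adjusted p = 0.0432) and Clip3, a microtubule-binding protein, by 0.85 (SE 0.21, adjusted p = 0.02). Slc2a1, the glucose transporter of the blood-brain barrier, was at 10.15, 9.91, 10.57 and 10.43 in R192, against 10.67 to 11.51 in WT (median 11.11), and fell by 0.83 (SE 0.22, adjusted p = 0.0264). Atp1b2, a glial sodium pump subunit (-0.79), Ncdn, neurochondrin (-0.77), Fasn, fatty acid synthase (-0.76), Dner, a Notch ligand of Purkinje cells (-0.76), Pnmal2 (-0.74), Zmiz1, a transcriptional coregulator (-0.73), and Grn, progranulin (-0.73), completed the 15 largest falls. A different probe set of Zmiz1 differed by -0.57 and a further one by -0.01. None of these 11 genes passed at either CPO dose. Their calls in vehicle also rested on single arrays, since all 11 were lost without R192 replicate 2 and without WT replicate 1. Over all 31 alternative settings Pnmal2 did not pass in 7, Dner, Zmiz1 and Grn in 8 each, Sez6l2, Clip3 and Atp1b2 in 9 each, Slc2a1 in 11, Fasn in 14, Gaa in 16 and Ncdn in 17. Ncam1, the neural cell adhesion molecule, had one of the smallest p among the falls and is named after its values were seen. Its level was 10.87, 10.73, 10.88 and 10.90 in R192, against 11.26 to 11.44 in WT (median 11.38), and it fell by 0.53 (SE 0.09, adjusted p = 0.000716).

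Among 37 genes of the synaptic vesicle cycle, 10 fell and 0 rose, against 4.67% of all genes lower, and the median was -0.27. Syn1, the vesicle phosphoprotein synapsin I, was at 8.91, 8.60, 8.91 and 8.58 in R192, against 9.32 to 9.82 in WT (median 9.59), and fell by 0.84 (SE 0.20, adjusted p = 0.0167). Syn2, synapsin II, fell by 0.47 (SE 0.12), Nsf, the ATPase that takes SNARE complexes apart, by 0.44 (SE 0.11), and its adaptor Napa by 0.39 (SE 0.09). In none of these 4 did the groups overlap, which held for 541 of the 698 falls that passed. At CPO 0.35 the median was -0.05 and 0 passed with limma, with 6 at an unadjusted p under 0.05. At CPO 0.5 the median was +0.03 and 0 passed, with 1 at an unadjusted p under 0.05. The count of 10 became 5, 0 and 3 without R192 replicate 1, 2 and 4. It became 1, 4, 4 and 6 without WT replicate 1, 2, 5 and 6. With each array centred on its median it was 6. The median lay between -0.28 and -0.23 with any 1 vehicle array left out. The mean level of the list was 10.16 to 10.29 in R192, against 10.28 to 10.58 in WT, where WT replicate 4 was lowest.

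Of 18 GABA system genes, 3 fell and 0 rose, which is 16.7% against 4.67% of all genes lower, with a median of -0.12. The count was 0 without R192 replicate 2 and 1 without R192 replicate 4 or WT replicate 1, and the median lay between -0.17 and -0.06 with any 1 vehicle array left out. Gabra2, a GABA-A receptor subunit, was at 9.29, 8.88, 8.82 and 9.08 in R192, against 9.36 to 9.85 in WT (median 9.60), and fell by 0.58 (SE 0.14, adjusted p = 0.0182). Its difference was -0.46 at CPO 0.35 (adjusted p = 0.142) and -0.65 at CPO 0.5 (adjusted p = 0.1). Gad1, which makes GABA, fell by 0.53 (SE 0.14) with overlapping groups, and Gabbr2, a GABA-B receptor subunit, by 0.48 (SE 0.12). Gad1 differed by -0.01 at CPO 0.35 and +0.15 at CPO 0.5, and Gabbr2 by -0.13 and -0.03. Over the list the median was +0.05 at CPO 0.35 and +0.01 at CPO 0.5, with 10 of 18 higher at each dose. With limma 0 passed at either dose, with 8 and 1 at an unadjusted p under 0.05. In vehicle, Grik3 fell of 24 glutamate receptor genes (-0.33), and Kcnk9 fell of 85 potassium channel genes (-0.37). These are 4.17% and 1.18%, against 4.67% of all genes lower.

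Genes with bearing on the biology of organophosphates and of paraoxonase gave the following. Ache, the acetylcholinesterase that oxons inhibit, was at 8.72, 8.50, 8.70 and 8.32 in R192, against 8.74 to 9.37 in WT (median 8.92). The groups did not overlap, which held in that direction for 7.83% of all genes tested. The difference of -0.42 (SE 0.20) did not pass (limma adjusted p = 0.19). Among 31 alternative settings Ache passed in 1 (lowest limma adjusted p = 0.0234) and changed sign in 1. Bche, butyrylcholinesterase, averaged 7.83 ± 0.25 in R192 (SD, n = 4) and 7.59 ± 0.31 in WT (n = 6), a difference of +0.24 (SE 0.14, adjusted p = 0.289). Of 22 genes of cholinesterases and cholinergic neurons, 0 passed with limma, with 5 at an unadjusted p under 0.05, and the median was -0.08. Of 18 serine hydrolases, the enzyme class whose active site oxons can phosphorylate, 7 fell and 0 rose, which is 38.9% against 4.67% of all genes lower, with a median of -0.19. Besides Fasn, these included Dagla, which makes the endocannabinoid 2-arachidonoylglycerol (-0.72, SE 0.19), Lypla2, a depalmitoylating thioesterase (-0.38, SE 0.11), and Apeh, an acylpeptide hydrolase (-0.30, SE 0.09). Of 15 genes of high-density lipoprotein and lipoprotein handling, 4 fell and 0 rose, which is 26.7% against 4.67% of all genes lower, with a median of -0.23. Lrp1, an endocytic lipoprotein receptor, was at 9.74, 9.28, 9.57 and 9.36 in R192, against 10.06 to 10.37 in WT (median 10.20), and fell by 0.71 (SE 0.16, adjusted p = 0.0156). Pltp, a phospholipid transfer protein (-0.63, SE 0.18), and the cholesterol exporters Abcg1 (-0.51, SE 0.15) and Abca1 (-0.31, SE 0.09) fell with it. Of 33 glutathione and oxidative stress genes 0 passed with limma, with 13 at an unadjusted p under 0.05 and a median of -0.05. Of 20 cholesterol synthesis genes 0 passed, with 2 at an unadjusted p under 0.05 and a median of -0.06, which lay between -0.11 and +0.01 with any 1 vehicle array left out. The 7 serine hydrolases became 0 without R192 replicate 2 or 4 or WT replicate 1, 1 without R192 replicate 1 or WT replicate 2 or 5, and 4 without WT replicate 6. The 4 lipoprotein genes became 0 without R192 replicate 2, 1 without R192 replicate 1 or 4 or WT replicate 1 or 2, and 2 without WT replicate 5 or 6. The medians lay between -0.22 and -0.16 for serine hydrolases and between -0.27 and -0.17 for lipoprotein genes with any 1 vehicle array left out. With each array centred on its median 1 gene passed in each of these lists. The serine hydrolase median was +0.03 at the low and +0.04 at the high dose of CPO, with 10 and 15 of 18 higher. The lipoprotein median was +0.04 and +0.003 in the same order, with 10 and 8 of 15 higher. With limma 0 genes of either list passed at either dose. At an unadjusted p under 0.05 were 1 and 0 serine hydrolases, and 3 lipoprotein genes at each dose.

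Of 24 ER chaperone and unfolded protein response genes, 6 fell and 0 rose, which is 25% against 4.67% of all genes lower, with a median of -0.18. Calr, the calcium-binding chaperone calreticulin, was at 10.75, 10.71, 10.88 and 10.51 in R192, against 11.14 to 11.38 in WT (median 11.22), and fell by 0.53 (SE 0.14, adjusted p = 0.0229). Sel1l, of ER-associated degradation, fell by 0.44 (SE 0.09), Hyou1, a large ER chaperone, by 0.42 (SE 0.11) and Herpud1 by 0.40 (SE 0.11). The median was the same, -0.18, at CPO 0.35, where 1 gene of the list passed, and +0.14 at CPO 0.5, where 0 passed and 5 had an unadjusted p under 0.05. In vehicle the count of 6 became 2, 0 and 1 without R192 replicate 1, 2 and 4. It became 2, 2, 4 and 3 without WT replicate 1, 2, 5 and 6, and with each array centred on its median it was 3. With any 1 vehicle array left out, the median lay between -0.27 and -0.15. Immediate early genes (Egr1 among 27), clock genes (Cry2 among 18) and glucocorticoid-responsive genes (Errfi1 among 16) each had 1 fall, which is 3.70%, 5.56% and 6.25% in the same order and near the 4.67% of all genes. Each of these counts was 0 without R192 replicate 1 or 2 or WT replicate 2. Of 18 interferon and antigen presentation genes 0 passed with limma, with 1 at an unadjusted p under 0.05.

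**Figure D4:**
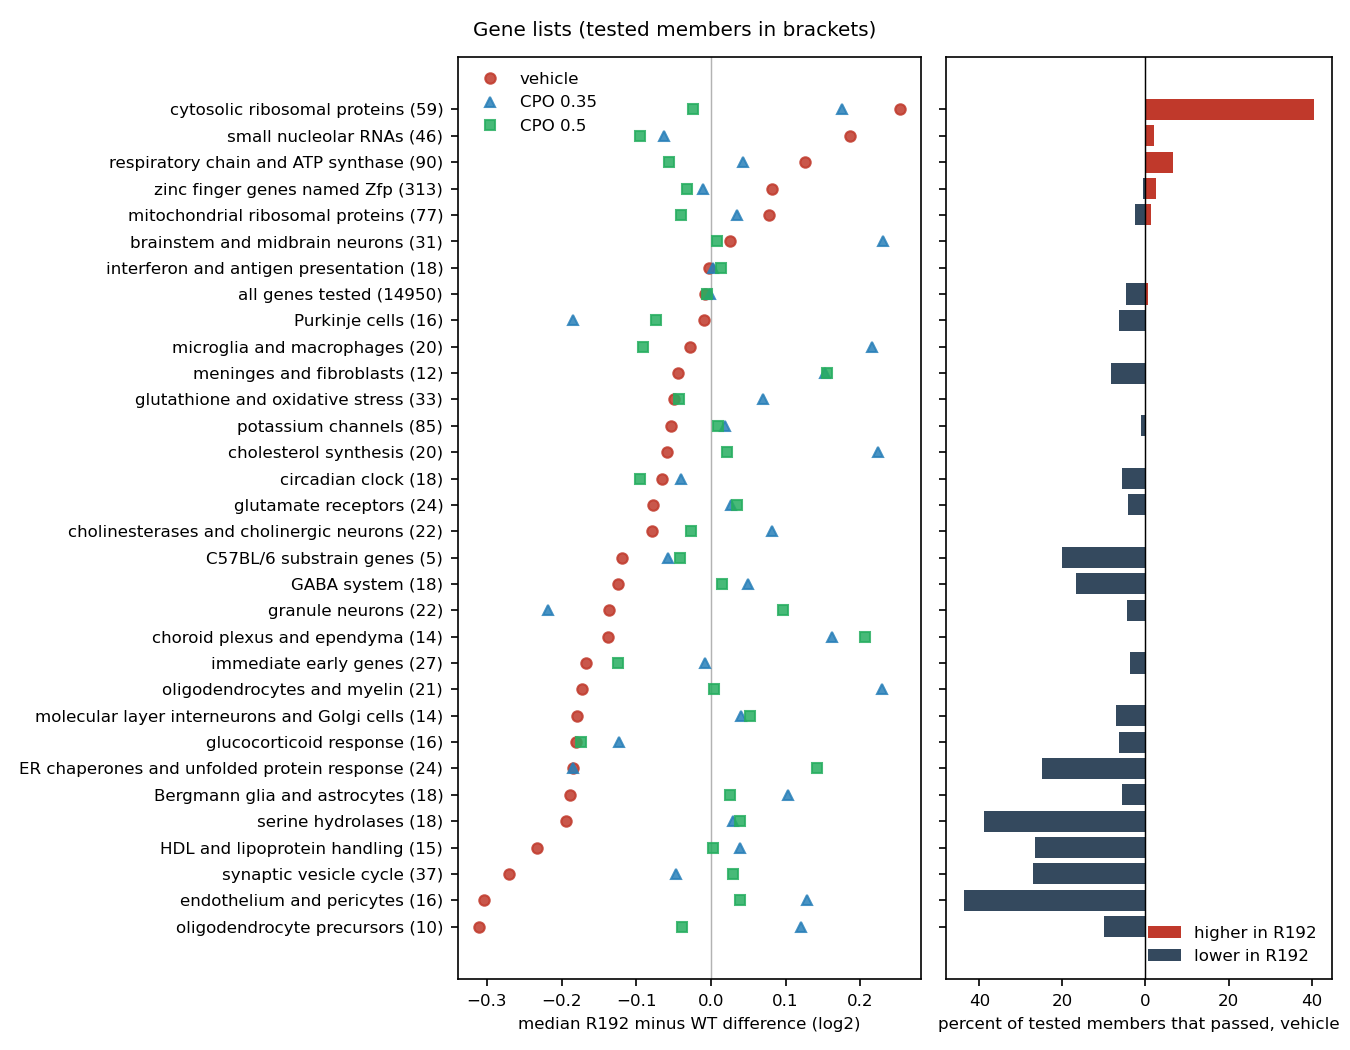
Left, median difference between R192 and WT over the tested members of each gene list in vehicle (circles), CPO 0.35 (triangles) and CPO 0.5 (squares), on the log2 scale. Right, percent of tested members that passed in vehicle, to the right where higher in R192 and to the left where lower. Ribosomal protein genes reach 40.7% higher, and endothelium and pericyte markers 43.8% lower.

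Among the cell type lists, 7 endothelium and pericyte markers passed, and every other list had 0 or 1 passing gene. Of 16 endothelium and pericyte markers, 7 fell and 0 rose, which is 43.8% against 4.67% of all genes lower, with a median of -0.30. Besides Slc2a1 they included Kdr, the main receptor of vascular endothelial growth factor, at 7.69, 7.46, 7.35 and 7.52 in R192, against 7.93 to 8.56 in WT (median 8.17), which fell by 0.67 (SE 0.16, adjusted p = 0.0174). Flt1, another such receptor, fell by 0.48 (SE 0.12), and Pdgfrb, the pericyte receptor of platelet-derived growth factor, by 0.43 (SE 0.11). The mean of the list was 8.60 to 8.72 in R192, against 8.77 to 9.32 in WT, with no overlap. At CPO 0.35 its median was +0.13 and 0 passed with limma, with 4 at an unadjusted p under 0.05. At CPO 0.5 its median was +0.04 and 0 passed, with 0 at an unadjusted p under 0.05. On such whole tissue, fewer cells of a type and less RNA per cell cannot be told apart. The vehicle count of 7 became 3, 0 and 2 without R192 replicate 1, 2 and 4, and 2, 3, 4 and 4 without WT replicate 1, 2, 4 and 6. It was 0 without both WT replicates 1 and 4, and 4 with each array centred on its median. The median was -0.30 without both WT replicates 1 and 4 and lay between -0.35 and -0.25 with any 1 vehicle array left out. The WT replicate with the highest mean was 4.

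Of 10 oligodendrocyte precursor markers all were lower in R192, with a median of -0.31, and Ptprz1 passed (-0.21, adjusted p = 0.0415). Of 14 markers of molecular layer interneurons and Golgi cells all were lower, with a median of -0.18, and Gad1 passed. The mean of that list lay between 8.71 and 8.88 in R192, against 8.97 to 9.13 in WT, without overlap. In vehicle, Bergmann glia and astrocyte markers had a median of -0.19, with Slc4a4, a bicarbonate transporter, passing of 18 (-0.29). Their mean also did not overlap (10.63 to 10.75 in R192, 10.78 to 10.90 in WT). Such non-overlap of list means was not particular to cell types. Means were also lower without overlap for serine hydrolases, lipoprotein genes and C57BL/6 substrain genes, and higher for small nucleolar RNAs and paraoxonases. Granule neuron markers had a median of -0.14 with Kcnk9 passing of 22, and Purkinje cell markers one of -0.01 with Cacna1g passing of 16 (-0.61). Neither median held its direction, since the granule neuron one was +0.01 without WT replicate 1 and -0.34 without WT replicate 4, and the Purkinje one was +0.06 without WT replicate 1 and -0.16 without WT replicate 4. Of meninges and fibroblast markers, Vtn passed of 12 (-0.48), a call lost in 19 of 31 alternative settings. The single calls were 5.56% of Bergmann glia and astrocyte markers, 4.55% of granule neuron and 6.25% of Purkinje cell markers. For meninges and fibroblast markers the share was 8.33%. All 4 shares are near the 4.67% of all genes lower. Vtn is also counted among the endothelium and pericyte falls, Gad1 in the GABA system and Kcnk9 among potassium channels. Of 21 oligodendrocyte, 20 microglia, 14 choroid plexus, 31 brainstem and midbrain and 3 blood cell markers, 0 passed with limma, with 6, 4, 2, 2 and 0 at an unadjusted p under 0.05. Their medians were -0.17, -0.03, -0.14, +0.03 and +0.15 in the same order. With any 1 vehicle array left out, the microglia median lay between -0.10 and +0.05 and the brainstem one between -0.12 and +0.07. Of 5 genes known to differ among C57BL/6 substrains Cyfip2 passed (-0.42), which is 20% of a short list. With the granule neuron mean of each array as a covariate 931 genes passed, and with the brainstem mean 1575. With the ribosomal protein mean as a covariate, 9 of 14950 genes passed higher in R192 and 8 lower. The synaptic vesicle, endothelium, serine hydrolase and ER chaperone lists each had 0 passing genes. So few calls over all genes cannot set these lists apart from others. With that covariate the median was -0.10 for synaptic vesicle genes, -0.33 for endothelium, -0.14 for serine hydrolases and -0.17 for ER chaperones, against -0.27, -0.30, -0.19 and -0.18 without it. The part of these cell type markers in the other lists was not tested.

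**Figure D5:**
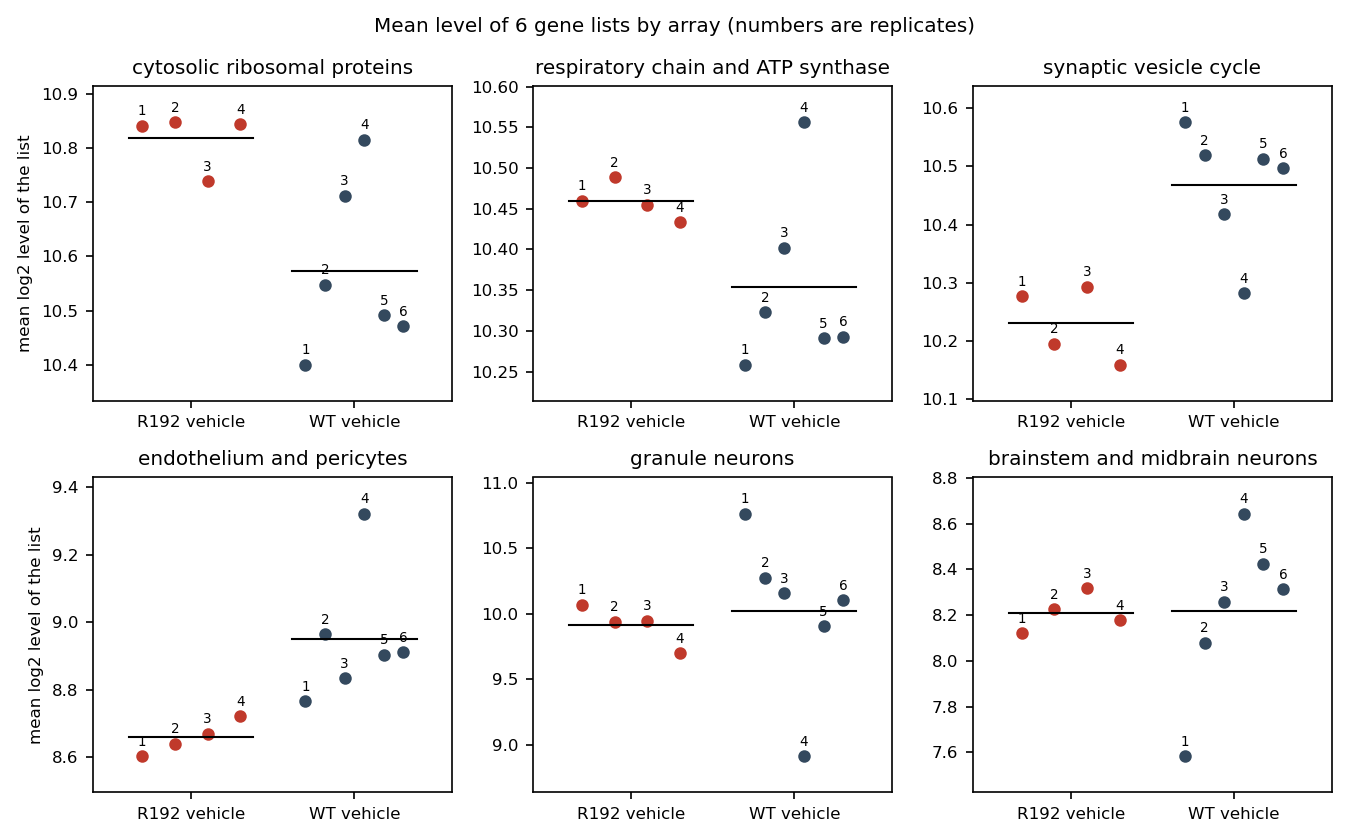
Mean log2 level of 6 gene lists in each R192 (red, left) and WT (dark, right) vehicle array, numbered by replicate, with group means as bars. The endothelium and pericyte means do not overlap (8.60 to 8.72 in R192, 8.77 to 9.32 in WT), while WT replicate 4 reaches 10.81 for ribosomal proteins and lies lowest for granule neurons at 8.91.

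The other rises that led by size were of mixed kind. G530011O06Rik, a transcript of the X chromosome, was at 7.85, 8.63, 7.88 and 8.10 in R192, against 6.46 to 7.48 in WT (median 6.99), and rose by 1.17 (SE 0.29, adjusted p = 0.02). Psg16, a pregnancy-specific glycoprotein gene of chromosome 7, rose by 0.63 (SE 0.17, adjusted p = 0.0305), and Etfrf1, a regulator of electron transfer flavoprotein, by 0.60 (SE 0.13, adjusted p = 0.0112). Gm8995 (+0.58), Atad3aos (+0.48) and Gm10589 (+0.47) completed the 15 largest rises. In all of these, every R192 array was above every WT array, which held for 41 of the 98 rises that passed.

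Other vehicle arrays show where R192 stood among the lines. The R192 arrays enter these comparisons too, so the values are given side by side. Against Q192, the line with the other human form, 4 genes passed (0.0268%), 3 higher in R192 (0.0201%) and 1 lower (0.00669%). Marchf1, a ubiquitin ligase (+0.98), Wdfy1 (+0.58) and Cnbd2 (+0.40) were higher in R192 and Myo10 (-0.43) lower, each with an adjusted p of 0.018. Against arrays labelled KO, 4 genes passed (0.0268%), 3 higher in R192 (0.0201%) and 1 lower (0.00669%), with Snord53 (+0.87), Plekhd1 (+0.85) and Hspa4l (+0.53) higher in R192 and Mrpl20 (-1.18) lower. Among these 8, Marchf1, Wdfy1, Cnbd2 and Plekhd1 did not differ from WT past the threshold in R192 (+0.08, -0.12, +0.06 and -0.33). Without single R192, Q192 or KO-labelled arrays, 0 to 3 genes passed against Q192 and 1 to 6 against KO. The arrays labelled KO were not alike. Replicate 4 had high Xist (11.26) and low Eif2s3y (4.15), the reverse of every R192 array, and replicate 1 stood at 28.9 on the first principal axis, where the other vehicle arrays ran from -16.9 to 17.1. Against KO, 2 genes passed without replicate 1 and 6 without replicate 4.

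The level of Mrpl20 was 8.29 ± 0.12 in R192, 8.15 ± 0.04 in Q192 and 9.48 ± 0.07 in arrays labelled KO (SD, n = 4 each), against 9.39 ± 0.19 in WT (n = 6). Snord53 was at 7.49 ± 0.16 in R192, 7.41 ± 0.23 in Q192 and 6.61 ± 0.18 in KO, against 6.44 ± 0.15 in WT. Hspa4l was at 11.06 ± 0.11 in R192, 11.03 ± 0.09 in Q192 and 10.53 ± 0.13 in KO, against 10.46 ± 0.08 in WT. In these 3 genes the KO mean was nearer to WT and the Q192 mean nearer to R192. Gdpd3 was at 6.27 ± 0.12 in R192, 6.43 ± 0.09 in Q192 and 6.27 ± 0.17 in KO, against 8.56 ± 0.19 in WT. Pglyrp1 was at 8.49 ± 0.21 in R192, 8.60 ± 0.10 in Q192 and 8.62 ± 0.20 in KO, against 7.64 ± 0.10 in WT. Ica1 was at 9.37 ± 0.08 in R192, 9.31 ± 0.09 in Q192 and 9.37 ± 0.14 in KO, against 9.75 ± 0.13 in WT. In these 3 the 3 lines had similar means and WT stood alone. Rabl2 was at 8.30 ± 0.02 in R192, 8.30 ± 0.10 in Q192 and 7.81 ± 0.15 in KO, against 7.53 ± 0.14 in WT, with the KO level in between.

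Syn1, one of the falls that passed in vehicle alone, was at 8.75 ± 0.19 in R192, 9.48 ± 0.16 in Q192 and 9.05 ± 0.61 in arrays labelled KO, against 9.60 ± 0.19 in WT. Its difference between R192 and Q192 was -0.72 (SE 0.21) and did not pass (adjusted p = 0.18). The ribosomal protein mean was 10.82 ± 0.05 in R192, 10.62 ± 0.02 in Q192 and 10.69 ± 0.06 in KO, against 10.57 ± 0.16 in WT. Endothelium and pericyte markers averaged 8.66 ± 0.05 in R192, 8.84 ± 0.07 in Q192 and 8.70 ± 0.12 in KO, against 8.95 ± 0.19 in WT.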

How the data were processed

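RNA of mouse cerebellum was hybridised to 55 Affymetrix Mouse Gene 1.0 ST arrays. The deposited values are log2 levels per probe set, made by the authors with RMA in Affymetrix Expression Console 1.1 per the submitters' processing notes; the log base is not named there, and the values (1.15 to 14.80) fit log2. Of 35557 probe sets, 21789 had 1 gene symbol, 1621 several and 12147 none, and 21698 matched the RefSeq table. The probe set of highest mean stood for each of 19938 genes. Genes under the 25th percentile of mean level (6.44) and 3 sex-linked genes were left out, leaving 14950. All arrays entered 1 limma fit (lmFit and eBayes with a variance trend) of 12 groups with array date as covariate and correlation 0.131 between arrays sharing a description number (42 residual degrees of freedom), with Benjamini-Hochberg adjustment over all genes and a threshold of 0.05. The number of arrays limits the precision. Named genes were the 15 largest rises and 15 largest falls that passed, the 3 paraoxonases, Ache, Bche, passing genes among 30 tested genes on each side of Pon1, and up to 4 passing members of each list with the smallest p. Genes that passed in another comparison, and the passing genes with the smallest p, Ncam1 among them, were added after their values were seen. The checks for single arrays that stood apart covered these added genes too. Members and lists were chosen with earlier results of these data known. Filters, scaling, weights, covariates, single dates and left-out arrays were tried as alternatives. The script was tested on simulated data. R 4.3.3, limma 3.58.1, Python 3.11.15 and matplotlib 3.10.9 were used.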

Additional observations from a re-analysis of the deposited data

Results flagged for a closer look

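Single arrays stood apart from the rest of their group in 17 of 272 checks of named genes and list means. That share is near the about 5% that chance gives. The checks are not independent, since list means include named genes. WT replicate 4 accounts for 7 of the 17 and WT replicate 1 for 3. In WT replicate 4, Vtn was at 10.66 (next array 10.26), Ech1 at 9.88 (9.46) and Wdfy1 at 9.13 (8.86). Its list means stood apart for endothelium and pericytes at 9.32 (8.97), glutathione and oxidative stress at 9.99 (9.76), cholesterol synthesis at 10.55 (10.11) and glutamate receptors at 9.40 (9.73). In WT replicate 1, Apeh was at 8.77 (8.56), Pltp at 10.60 (10.04) and Mxra8 at 8.92 (8.49). In WT replicate 5, Gdpd3 was at 8.91 (8.55), Mid1 at 9.75 (9.06) and the potassium channel mean at 8.32 (8.25). Gm10589 was at 7.33 in WT replicate 2 (7.59). In R192 replicate 1, Ech1 was at 9.68 (9.79) and Galr1, a galanin receptor, at 5.84 (6.34). The ribosomal protein mean was 10.74 in R192 replicate 3 (10.84).

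The difference between R192 and WT itself differed between CPO 0.5 and vehicle in 3 genes by the interaction term. It was higher at CPO 0.5 by 0.58 for Myo10, by 0.52 for Ift122 and by 0.79 for Lman2l, each with a limma adjusted p of 0.0458.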

How the results depend on the processing

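The 796 genes between R192 and WT in vehicle became 1226 without the correlation of arrays sharing a number, 3052 with array quality weights, 460 with each array centred on its median (174 higher, 286 lower, against 98 and 698), 4 within the first array date and 6 within the second. Alternatives chosen after seeing the data gave 179 without WT replicates 1 and 4, 14 without R192 replicates 2 and 4, 17 with the ribosomal protein mean as covariate, 26 with the first principal axis, 1575 with the brainstem mean and 1499 without 3 arrays of high Xist and 1 array labelled KO. Leaving out 1 array gave 28 to 1209. With only the 10 arrays compared, 712 genes passed, 41 higher and 671 lower, and 460 of them were among the 796. That fit kept 9 of the 10 genes that passed in all 3 comparisons. It kept 12 of the 19 that passed in vehicle and at a dose. The cause of these changes was not tested.

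For the other comparisons, array quality weights gave 161 genes at CPO 0.35, 32 at CPO 0.5, 1764 against Q192, 1270 against KO, and 1 and 1037 for the change of the difference at CPO 0.35 and 0.5. Without the number correlation, 23 passed at CPO 0.5 and 10 against KO. Within the first date 3 passed at CPO 0.35, 2 at CPO 0.5 and 0 against Q192, against KO and for the change at CPO 0.5. Within the second date these were 10, 5, 0, 1 and 0. The 3 genes of the change at CPO 0.5 became 0 without the date term and 0 without the level filter. Leaving out 1 array gave 16 to 145 at CPO 0.35, 10 to 14 at CPO 0.5, 0 to 3 against Q192, 1 to 6 against KO, 0 to 1 for the change at CPO 0.35 and 0 to 4 for that at CPO 0.5.

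With the replicate number as a block, 1026 genes passed in vehicle (148 higher, 878 lower), 95 at CPO 0.35, 14 at CPO 0.5, 5 against Q192, 7 against KO, and 0 and 1 for the changes at CPO 0.35 and 0.5. Deviations of same-numbered R192 and WT vehicle arrays correlated at 0.16, 0.04, -0.38 and 0.09. Those of differently numbered arrays correlated at -0.37 to 0.40, and replicate 3 had different dates in R192 and WT. So few correlations cannot show whether the numbers pair the arrays. Of named genes, Pon3 turned to +0.00 (0.0013) with array weights, Bche to -0.12 with the ribosomal covariate and Ache to +0.06 (0.0577) with the first axis. None of these genes had passed in the fit described above.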
